A study of Mus musculus with 6 samples.

Results

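The T cell receptor (TCR) γ locus of the mouse was followed by 10 of its gene rows, which were picked by name out of the 41457 rows of each gene table. They were the variable segments *Tcrg-V1*, *Trgv2* and *Tcrg-V3*, the joining segments *Trgj1*, *Trgj2* and *Trgj4*, and the constant regions *Tcrg-C1*, *Tcrg-C2*, *Tcrg-C3* and *Tcrg-C4*. The RNA came from CD4-CD8- double-negative (DN) cells of the thymus, which are T cell precursors without either co-receptor. There were 3 libraries from BirA mice, whose genotype the labels give as WT, and 3 from Nc1Bio mice, labelled as NFATc1 overexpression. Both groups expressed the biotin ligase BirA, and the study calls its control line Rosa26BirA. The Nc1Bio mice also had a transgene on a bacterial artificial chromosome (BAC), which held a further copy of *Nfatc1* whose protein ended in a biotin tag, so the groups differed in the whole BAC and not in NFATc1 alone. All mice were 4 to 6 weeks old and of C57/B6 background, and the study states that they were matched for sex and age. Cells carrying CD4 or CD8 had been removed with magnetic beads and the rest was not sorted further, so that each library is a mixture. The comparison asked whether RNA from the γ locus, and from which part of it, differed between Nc1Bio and BirA.

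A TCR γ chain is made when the RAG recombinase joins a V segment to a J segment, and the joined V-J exon is then spliced to the constant region behind it. In the mouse the locus is built from 4 clusters, each with its own J and C, and a V segment is mostly joined within its own cluster. A γ chain pairs with a δ chain on γδ T cells, and the V segment used is linked to the time of development and to the tissue. Thymocytes with Vγ1.1, the product of *Tcrg-V1*, together with Vδ6.3 are the innate-like NKT γδ cells that the study is concerned with. γ segments can be transcribed before and without a productive joining, and cells that go on to the αβ lineage can also carry γ rearrangements, so that RNA of the locus is not a count of γδ cells.

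The members lie on chromosome 13 between positions 19210343 and 19352756 (GRCm38, as in the tables), over 142414 bases. *Trgj1* (19210343 to 19210402) and *Tcrg-C1* (19214103 to 19217024) come first and form the C1 cluster. *Tcrg-V3* (19242845 to 19243301) and *Tcrg-C3* (19260884 to 19263528) of the C3 cluster follow. The C2 cluster is inverted, with *Tcrg-C2* (19304649 to 19307551), *Trgj2* (19311245 to 19311304) and *Trgv2* (19336573 to 19337167) on the minus strand. *Tcrg-V1* (19339989 to 19340454), *Trgj4* (19342152 to 19342212) and *Tcrg-C4* (19344558 to 19352756) make up the C4 cluster at the far end. *Trgv2* and *Tcrg-V1* are direct neighbours that point away from each other, with 2821 bases between them. *Tcrg-C3* was the one member with annotated exons, 3 of them with 519 bases in all, and the tables count every read of the other 9 members as an intron read.

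The V segments are shown because their sequences decide which reads can be told apart. *Tcrg-V1*, *Trgv2* and *Tcrg-V3* are close relatives in 3 different clusters. The coding sequence of *Tcrg-V1* is identical at 95.7% of aligned bases to that of *Trgv2* and at 95.6% to that of *Tcrg-V3*, and *Trgv2* and *Tcrg-V3* are identical at 94.5%. The first 300 coding bases are those of GENCODE vM1, matched by Ensembl gene ID. Capitals mark bases that differ from both other V segments in pairwise alignments, where differing bases near a gap can stay unmarked:
Tcrg-V1: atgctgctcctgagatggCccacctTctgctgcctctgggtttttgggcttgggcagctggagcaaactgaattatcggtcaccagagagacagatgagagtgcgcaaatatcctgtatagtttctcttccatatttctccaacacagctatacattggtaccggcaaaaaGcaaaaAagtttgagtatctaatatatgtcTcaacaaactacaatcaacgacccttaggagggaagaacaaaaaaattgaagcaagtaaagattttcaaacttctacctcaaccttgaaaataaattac
Trgv2: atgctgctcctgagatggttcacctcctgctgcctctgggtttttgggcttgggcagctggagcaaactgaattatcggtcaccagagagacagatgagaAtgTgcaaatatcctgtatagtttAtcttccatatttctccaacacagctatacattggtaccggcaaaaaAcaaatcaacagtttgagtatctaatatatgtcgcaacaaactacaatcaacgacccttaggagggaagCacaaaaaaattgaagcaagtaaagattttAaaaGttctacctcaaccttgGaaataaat
Tcrg-V3: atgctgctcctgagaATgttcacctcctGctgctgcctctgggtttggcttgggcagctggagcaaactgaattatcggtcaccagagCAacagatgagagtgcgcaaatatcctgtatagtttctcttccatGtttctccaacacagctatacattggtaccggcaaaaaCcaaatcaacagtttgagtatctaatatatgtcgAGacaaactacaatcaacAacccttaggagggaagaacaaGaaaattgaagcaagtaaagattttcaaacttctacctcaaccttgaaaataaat

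Of the 299 windows of 49 bases in *Tcrg-V1*, 49 bases being what remained of a read after trimming, 82 (27.4%) also occurred in another V segment. The share was 18.5% for *Tcrg-V3* and 10.9% for *Trgv2*.

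The constant regions are set beside each other because *Tcrg-C4* stands apart in sequence. *Tcrg-C1*, *Tcrg-C2* and *Tcrg-C3* are identical to each other at 96.9% to 97.4% of aligned coding bases, and *Tcrg-C4* to each of them at 77.1% to 77.4%. The stretch shown is the one that differs most in length. It is framed by a pair of neighbouring 9-base words that all 4 share and lies at the hinge, the part that links the immunoglobulin domain to the membrane, and capitals mark what lies between the words:
Tcrg-C1: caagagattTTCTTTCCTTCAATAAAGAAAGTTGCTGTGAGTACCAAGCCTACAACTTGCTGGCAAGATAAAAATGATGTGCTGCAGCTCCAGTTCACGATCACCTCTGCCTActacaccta
Tcrg-C3: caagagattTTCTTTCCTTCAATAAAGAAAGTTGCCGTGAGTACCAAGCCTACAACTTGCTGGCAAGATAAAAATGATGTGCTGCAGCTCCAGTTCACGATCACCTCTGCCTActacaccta
Tcrg-C2: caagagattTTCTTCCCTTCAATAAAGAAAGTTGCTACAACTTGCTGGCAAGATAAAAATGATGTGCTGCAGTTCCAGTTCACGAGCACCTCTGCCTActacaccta
Tcrg-C4: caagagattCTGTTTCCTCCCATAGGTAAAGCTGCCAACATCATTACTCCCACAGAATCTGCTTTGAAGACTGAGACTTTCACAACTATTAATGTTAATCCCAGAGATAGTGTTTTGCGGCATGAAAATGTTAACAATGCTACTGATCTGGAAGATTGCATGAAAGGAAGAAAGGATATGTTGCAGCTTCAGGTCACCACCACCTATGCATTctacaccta

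The stretch between the words is 104 bases in *Tcrg-C1* and *Tcrg-C3*, 89 bases in *Tcrg-C2* and 203 bases in *Tcrg-C4*. Windows of 49 bases that also occurred in another constant region made up 42.1% of *Tcrg-C1*, 43.3% of *Tcrg-C3*, 23.7% of *Tcrg-C2* and 0% of *Tcrg-C4*. No window of the *Tcrg-C4* coding sequence was thus shared, whereas reads of the other constant regions can be split or lost between near-identical copies, and their counts are uncertain to that extent.

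The libraries held 11845952 to 15393763 unique gene reads and 16690167 to 21858618 total gene reads. The study does not define unique reads, which are taken here as reads placed at a single position. Levels are given as CPM, the reads of a gene per 1000000 unique gene reads of the TMM-scaled library. Of the 41457 genes, 12224 passed the filter on low counts, and all 10 members were among them. *Nfatc1*, the gene on the BAC, was at 573 ± 23.2 CPM in Nc1Bio (SD, n = 3) and 126 ± 27.9 CPM in BirA (SD, n = 3). Nothing in the labels ties a library to an animal of its own, and the p-values therefore speak of the spread among these libraries, which may in part be technical. BirA replicate 3 stood apart from the other 5 libraries. It had 0 unique reads of *Ddx3y*, *Kdm5d* and *Uty* on the Y chromosome against 342 to 1249 elsewhere. Of *Eif2s3y*, also on the Y chromosome, it had 4 unique reads against 513 to 683. Its total reads of *Xist* were 911 against 0 to 2. This library did not match the others in its sex-linked reads, although the study states matched sexes. Results of the members that turn on it are given without it as well. Other named genes apart from *Nfatc1* are given with all libraries only.

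The *Tcrg-C2* constant region was the most abundant γ row, and in unique reads the order of the constant regions by level was C2, C1, C4 and C3 in BirA. Reads were counted over whole rows, which are 8199 bases long for *Tcrg-C4* and 2645 to 2922 bases for the other constant regions. An order per kilobase can therefore depend on the length used. Per kilobase of coding length, *Tcrg-C2* reached 1334 ± 104 CPM in BirA and 1309 ± 147 CPM in Nc1Bio (SD, n = 3). *Tcrg-C1* followed with 669 ± 117 CPM per kilobase in BirA and 650 ± 43.2 CPM per kilobase in Nc1Bio. *Tcrg-C4* came next in BirA with 417 ± 36.1 CPM per kilobase and *Tcrg-C3* last with 268 ± 51.8 CPM per kilobase. In Nc1Bio *Tcrg-C4* (237 ± 112 CPM per kilobase) and *Tcrg-C3* (251 ± 11.5 CPM per kilobase) did not differ beyond their spread. Among the V segments *Trgv2* was at 637 ± 42.6 CPM per kilobase in BirA, *Tcrg-V1* at 73.5 ± 11.7 CPM per kilobase and *Tcrg-V3* at 13.6 ± 3.62 CPM per kilobase. In total reads, which are scaled to their own library sums, the lower places of both orders in BirA were exchanged. *Tcrg-C3* was then at 456 ± 69.4 CPM per kilobase and *Tcrg-C4* at 297 ± 25.6 CPM per kilobase, and *Tcrg-V3* at 66.2 ± 5.03 against 52.4 ± 8.34 CPM per kilobase for *Tcrg-V1* (SD, n = 3). *Trgv2* took 86.4% to 90.0% of the unique reads of these V segments in BirA and 92.9% to 96.1% in Nc1Bio.

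All 10 members had a negative log2 fold change in Nc1Bio against BirA, where 50.4% of all tested genes had one. The 10 rows are not independent, as segments of a cluster can be parts of 1 transcript and some rows share sequence. *Tcrg-C1*, *Tcrg-C2* and *Tcrg-C3* changed sign when single libraries were left out. The median over the members was -0.26, and over all tested genes -0.0026. None of the 10 was called by the edgeR quasi-likelihood test at an adjusted p of 0.05, and in that fit 0% of all tested genes were called lower and 0.00818% higher. In 2 of the 10 members, *Tcrg-V1* and *Tcrg-C4*, the 3 Nc1Bio libraries were all lower than the 3 BirA libraries, and 9.98% of all tested genes had this pattern. No member had the reverse pattern, which 8.45% of all tested genes had. The same 2 members had an unadjusted p under 0.05 with a negative fold change, against 7.66% of all tested genes. DESeq2 on the same counts called 1 member, *Tcrg-V1*, lower, against 2.23% of all tested genes. In bulk RNA, fewer cells of a type and less RNA per cell cannot be told apart.

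**Figure D1:**
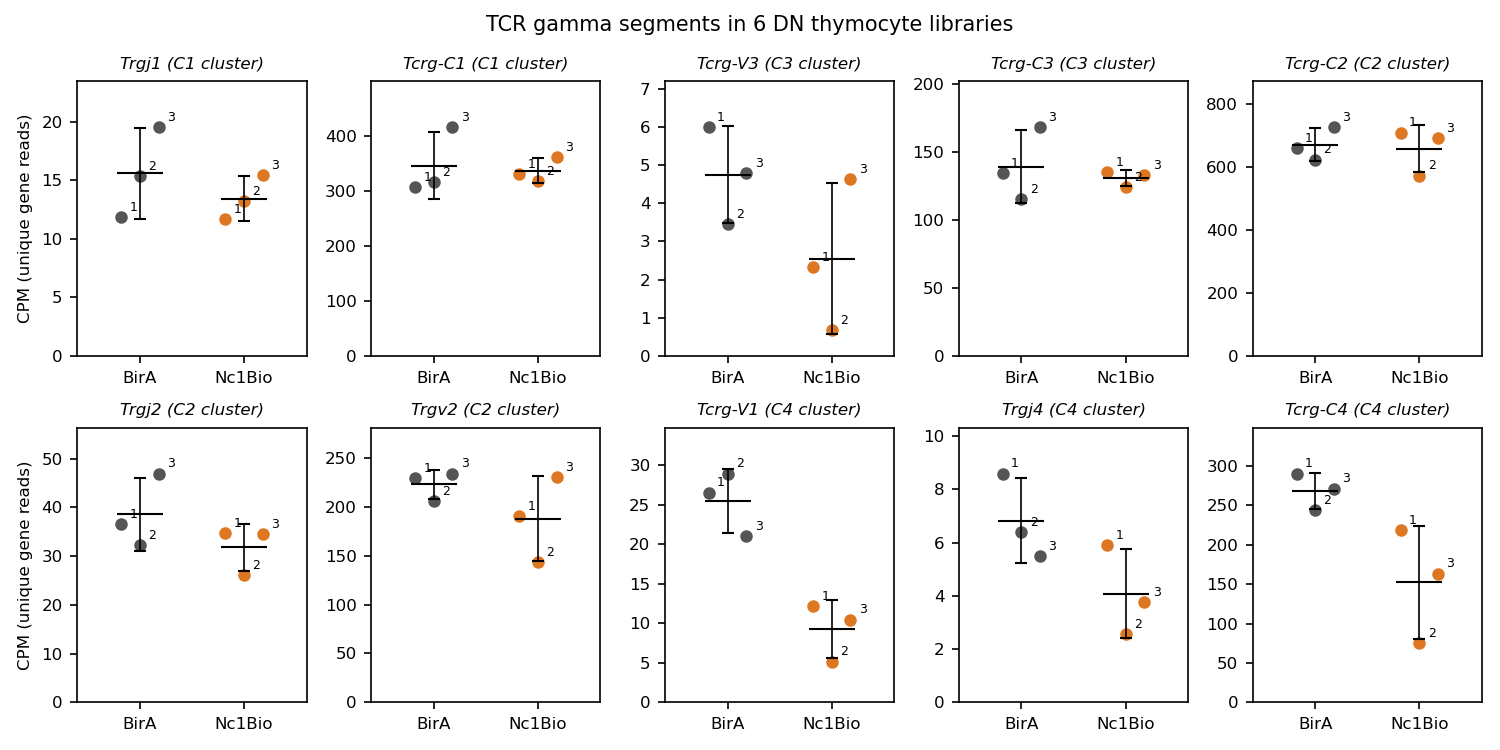
CPM of unique gene reads for the 10 members in order along the locus, with a separate y axis starting at 0 for each member. Each point is 1 library, marked with its replicate number, and the bar and whiskers are the mean and SD of 3 libraries. In *Tcrg-V1* and *Tcrg-C4* all Nc1Bio points lie under all BirA points, and Nc1Bio replicate 2 is the lowest point in both.

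Among the members, the largest difference in CPM was that of *Tcrg-C4* and the largest fold that of *Tcrg-V1*, both of the C4 cluster. By fold *Tcrg-V3* of the C3 cluster (1.86) came before *Tcrg-C4* (1.76) and *Trgj4* (1.67). *Tcrg-V1* (ENSMUSG00000076755), the V segment of Vγ1.1, was at 26.6, 28.9 and 21.1 CPM in BirA replicates 1, 2 and 3 and at 12.2, 5.16 and 10.5 CPM in Nc1Bio replicates 1, 2 and 3. The groups did not overlap, and the lowest BirA library stood well above the highest Nc1Bio library. The means were 25.5 ± 4.05 CPM and 9.27 ± 3.66 CPM (SD, n = 3), which is 2.75-fold lower in Nc1Bio. In edgeR this was a log2 difference of -1.46 (SE 0.31) at an adjusted p of 0.171. DESeq2 gave the same log2 fold change of -1.46 with an adjusted p of 0.000741, and edgeR without the low-count filter gave an adjusted p of 0.0193, in a fit that called 0.697% of all tested genes lower, so the call of *Tcrg-V1* turned on the tool and the filter. Without BirA replicate 3 the log2 fold change was -1.58 in edgeR (adjusted p = 0.163) and -1.59 in DESeq2 (adjusted p = 0.00248), where DESeq2 called 4.2% of all tested genes lower. Without BirA replicate 2 the DESeq2 call was lost (log2 fold change -1.37, adjusted p = 0.0519), and without any 1 of the other 4 libraries the DESeq2 adjusted p was 0.000855 to 0.0270.

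*Tcrg-C4* (ENSMUSG00000076757), the constant region to which *Tcrg-V1* is spliced, was at 290, 244 and 271 CPM in BirA replicates 1, 2 and 3. In Nc1Bio it was at 218, 75.6 and 163 CPM. The groups did not overlap, but Nc1Bio replicate 1 was close to BirA replicate 2 and Nc1Bio replicate 2 lay far under all others. The log2 difference was -0.82 (SE 0.33, edgeR adjusted p = 0.392), from 269 ± 23.3 to 152 ± 72.0 CPM (SD, n = 3). Without Nc1Bio replicate 2 it was -0.49, and without Nc1Bio replicate 1 it was -1.16. DESeq2 gave *Tcrg-C4* an adjusted p of 0.422 with all libraries and 0.00551 without Nc1Bio replicate 1, a fit that called 1.96% of all tested genes lower. In the other 5 DESeq2 fits that left out 1 library it was 0.144 to 0.802.

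*Trgj4* (ENSMUSG00000098799), the J segment between them, was at 8.59, 6.40 and 5.49 CPM in BirA and at 5.91, 2.58 and 3.78 CPM in Nc1Bio. Its groups overlapped by 1 library, since Nc1Bio replicate 1 was above BirA replicate 3. The log2 difference of -0.74 (SE 0.39) was of the size seen for *Tcrg-C4* and did not pass the edgeR test (adjusted p = 0.485). The row is 61 bases long and rested on 34 to 119 reads a library. Summed over its 3 members, the C4 cluster was at 279 to 325 CPM in BirA and at 83.4 to 236 CPM in Nc1Bio.

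Libraries that were low in *Tcrg-C4* were not low in the other constant regions to the same degree. Nc1Bio replicate 2, the lowest library for *Tcrg-C4* with 997 reads, had 4189 reads of *Tcrg-C1* and 7559 of *Tcrg-C2*. Genes of B cells were lower as well. The B cell markers *Cd79a*, *Cd79b*, *Ms4a1*, *Pax5*, *Ebf1* and *Ighm* summed to 1633 to 1995 CPM in BirA, to 1395 and 1556 CPM in Nc1Bio replicates 3 and 1 and to 287 CPM in Nc1Bio replicate 2, mostly from *Ighm*, and none of the 6 was at 0 in any library. Each of the 6 was lower in every Nc1Bio library than in any BirA library, against 9.98% of all tested genes, and their median log2 fold change was -1.65. edgeR called none of them, and DESeq2 called *Ms4a1* (log2 fold change -1.78, adjusted p = 0.0172) and *Cd79b* (-0.96, adjusted p = 0.0238) lower. The part of B cells in the *Tcrg-C4* result was not tested.

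The C2 cluster, the most abundant, differed little. *Tcrg-C2* (ENSMUSG00000076752) was at 662, 624 and 727 CPM in BirA and at 710, 573 and 692 CPM in Nc1Bio. The groups overlapped throughout, with a log2 difference of -0.03 (SE 0.11, edgeR adjusted p = 0.941). *Trgj2* (ENSMUSG00000105830), its J segment, was at 36.5, 32.2 and 46.9 CPM in BirA and at 34.7, 26.2 and 34.5 CPM in Nc1Bio, a log2 difference of -0.28 (SE 0.18, edgeR adjusted p = 0.576). Here too the ranges overlapped. *Trgv2* (ENSMUSG00000076754), the V segment of the cluster, was at 229, 206 and 234 CPM in BirA and at 190, 144 and 230 CPM in Nc1Bio. Nc1Bio replicates 1 and 2 were below all BirA libraries and Nc1Bio replicate 3 was among them, with a log2 difference of -0.25 (SE 0.17, edgeR adjusted p = 0.587). *Trgv2* and *Tcrg-V1*, the divergent neighbours, thus had unequal fold changes of -0.25 and -1.46, a difference that was not itself tested.

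In the C1 cluster, which in the mouse serves Vγ4 to Vγ7, the 2 members *Tcrg-C1* and *Trgj1* showed no difference beyond the spread. *Tcrg-C1* (ENSMUSG00000076749) was at 307, 316 and 416 CPM in BirA and at 331, 318 and 361 CPM in Nc1Bio, with BirA replicate 3 the highest of all. The log2 difference was -0.04 (SE 0.13, edgeR adjusted p = 0.924), and without BirA replicate 3 it turned to 0.12. *Trgj1* (ENSMUSG00000104962) was at 11.8, 15.4 and 19.5 CPM in BirA and at 11.7, 13.2 and 15.4 CPM in Nc1Bio, a log2 difference of -0.21 (SE 0.23, edgeR adjusted p = 0.746). Without BirA replicate 3, again the highest, that of *Trgj1* was -0.02. The rows of the other V segments of this cluster, *Tcrg-V4*, *Tcrg-V5*, *Tcrg-V6* and *Tcrg-V7*, were listed with 0 unique and 0 total reads in every library. All 4 lie inside *Gm31887* (19162036 to 19193558 on chromosome 13), a gene annotated as antisense to them. It had 111 to 219 unique and 743 to 1657 total reads a library. As the use of strand in the counting is not stated, reads from the V segments and from *Gm31887* cannot be told apart, and a count of 0 does not show that these V segments were silent. *Gm31887* had a log2 fold change of -0.35 in unique reads and -0.50 in total reads (edgeR adjusted p = 0.393 for total reads).

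The C3 cluster was the one most touched by shared sequence, and its low place among the constant regions held for unique reads and not for total reads. *Tcrg-C3* (ENSMUSG00000091682) was at 134, 115 and 168 CPM in BirA and at 135, 124 and 133 CPM in Nc1Bio. All Nc1Bio values lay inside the BirA range, with a log2 difference of -0.09 (SE 0.14, edgeR adjusted p = 0.829), which turned to 0.07 without BirA replicate 3. Of the total reads of *Tcrg-C3*, 39.5% to 43.2% were unique, and 90.4% to 96.1% of its unique reads spanned an exon junction. *Tcrg-V3* (ENSMUSG00000076750) was at 5.99, 3.46 and 4.79 CPM in BirA and at 2.33, 0.683 and 4.63 CPM in Nc1Bio, from 9 to 83 unique reads a library. The groups overlapped, and the log2 difference of -0.90 (SE 0.63, edgeR adjusted p = 0.604) moved to -0.44 without Nc1Bio replicate 2 and to -1.65 without Nc1Bio replicate 3. *Trgj3*, the J segment of the cluster and not among the members, had 4 to 22 reads.

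Non-unique reads were counted for some members only, and for *Tcrg-V3* they outweighed the unique ones. Its total reads were 489, 478 and 455 in BirA and 267, 173 and 271 in Nc1Bio, so the groups no longer overlapped once non-unique reads were counted, a pattern that 9.98% of all genes tested on total reads had. In total reads *Tcrg-V3* had a log2 difference of -0.79 (SE 0.21) at an adjusted p of 0.275 in edgeR and 0.0463 in DESeq2, which called 2.21% of all genes lower on total reads. Its non-unique reads alone were 406, 424 and 386 in BirA and 239, 164 and 211 in Nc1Bio, while *Tcrg-V1*, with which it shares 49-base windows, had 368, 452 and 303 and then 146, 68 and 136 unique reads and no non-unique ones. Both series of reads were lowest in Nc1Bio replicate 2, and from which segment the non-unique reads of *Tcrg-V3* came was not tested. In *Tcrg-C1* the non-unique reads numbered 883 to 1124 a library and in *Tcrg-C3* 2218 to 3178, whereas *Tcrg-C2* had at most 1 and *Tcrg-C4*, *Trgj2* and *Trgj4* had 0.

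**Figure D2:**
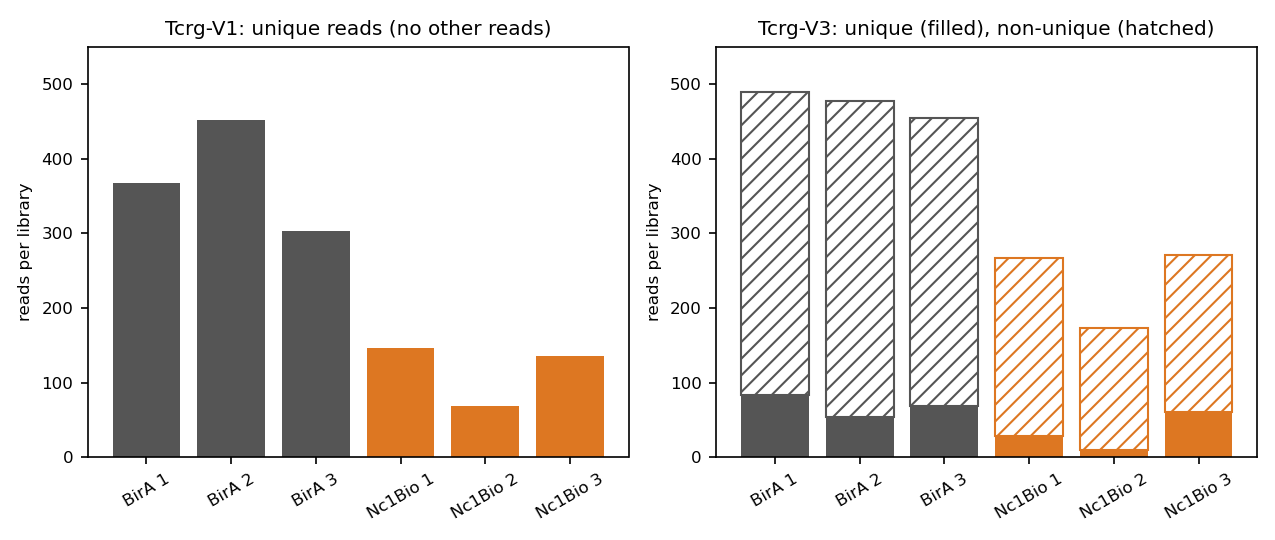
Reads of *Tcrg-V1* (left) and *Tcrg-V3* (right) in the 6 libraries as bars starting at 0, on the same y scale. Filled bars are unique reads and hatched bars are non-unique reads of *Tcrg-V3*; in both segments the 3 Nc1Bio bars are shorter than the 3 BirA bars, and most of each *Tcrg-V3* bar is hatched.

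Along the locus 6 members outside the C4 cluster had log2 fold changes between -0.28 and -0.03. The seventh, *Tcrg-V3* of the C3 cluster, was at -0.90 in unique and -0.79 in total reads, which is further from 0 than *Trgj4*. The 3 members of the C4 cluster lay between -1.46 and -0.74. In total gene reads they were -1.46 for *Tcrg-V1*, -0.74 for *Trgj4* and -0.82 for *Tcrg-C4*. These rows had no non-unique reads, so total reads hold the same counts for them and are no second check. Where reads of the windows that *Tcrg-V1* shares with other V segments were counted was not tested.

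**Figure D3:**
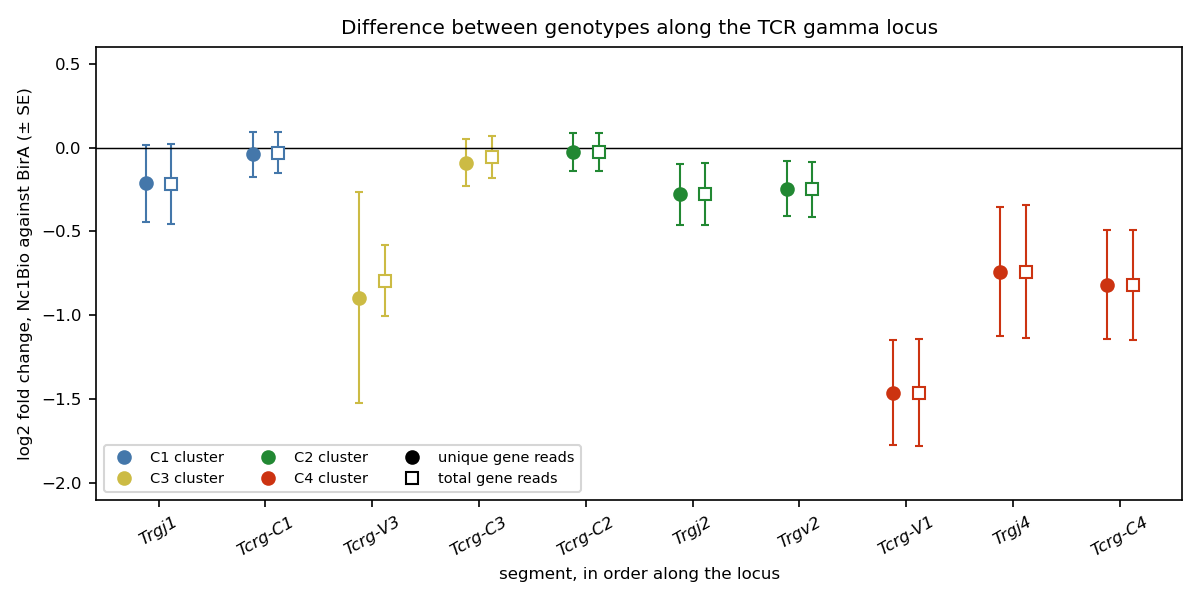
Log2 fold change of Nc1Bio against BirA with its SE from edgeR for the 10 members in order along the locus. Filled circles are unique and open squares total gene reads, and colours are the clusters. The C4 cluster lies at -0.74 and under, and the whiskers of *Tcrg-V3* shorten when total reads are used.

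Shares within a library do not depend on the scaling between libraries, so the reads of the 4 constant regions were compared as parts of their sum. *Tcrg-C4* took 20.8%, 18.8% and 17.1% of these reads in BirA and 15.7%, 6.94% and 12.1% in Nc1Bio. The groups did not overlap, and the mean share was 18.9 ± 1.85% in BirA and 11.6 ± 4.38% in Nc1Bio (SD, n = 3), 7.36 points lower (exact two-sided permutation p = 0.1, adjusted over 4 shares 0.2). *Tcrg-C2* took 45.9% to 48.0% in BirA and 50.9% to 52.6% in Nc1Bio, a mean share 4.42 points higher in Nc1Bio without overlap (exact permutation p = 0.1, adjusted 0.2). The smallest p that 3 against 3 libraries allow is 0.1, so no share could pass a threshold of 0.05. The share of *Tcrg-C1* averaged 24.2% in BirA and 26.6% in Nc1Bio, and that of *Tcrg-C3* was 9.70 ± 0.89% and 10.3 ± 0.92% (SD, n = 3). Both overlapped between the groups (exact permutation p = 0.4 for each). As the 4 shares add up to the whole, they are not independent of each other. The 95% Wilson intervals of single libraries reached at most 0.816 points to each side and cover counting error only, as reads are not independent molecules.

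**Figure D4:**
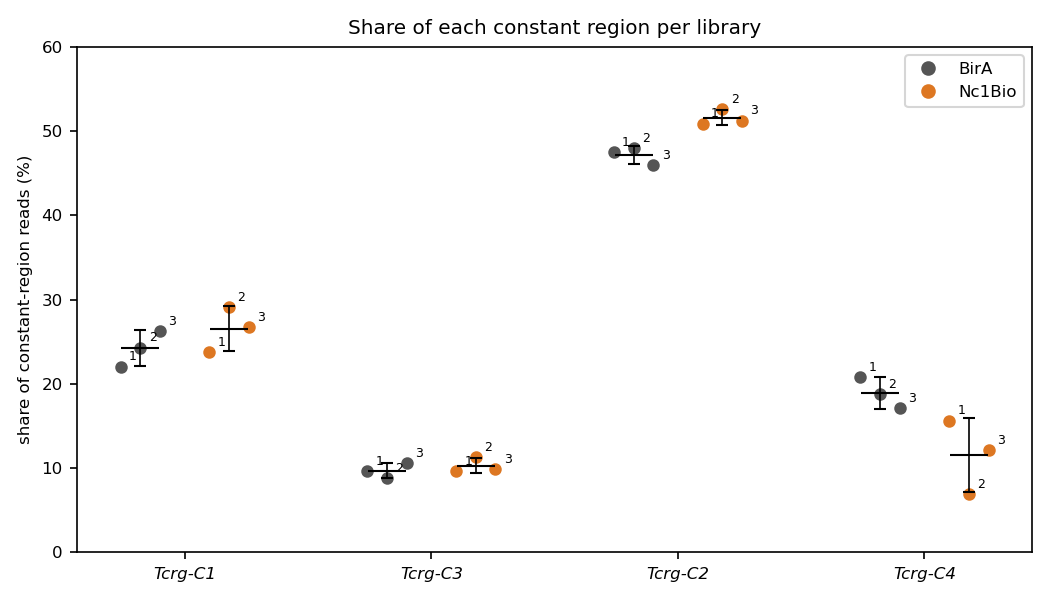
Share (%) of each constant region in the unique reads of all 4, per library, on an axis from 0. Points carry the replicate number, and the bar and whiskers are the mean and SD of 3 libraries; *Tcrg-C4* is lower and *Tcrg-C2* higher in every Nc1Bio library than in any BirA library.

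The V segments gave a similar picture as a description. *Tcrg-V1* took 10.2%, 12.1% and 8.11% of the unique reads of *Tcrg-V1*, *Trgv2* and *Tcrg-V3* in BirA and 5.94%, 3.45% and 4.28% in Nc1Bio. Among the J segments *Trgj4* took 15.1%, 11.9% and 7.63% of the unique reads in BirA and 11.3%, 6.15% and 7.04% in Nc1Bio, with overlap.

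Profiles over the 6 libraries were compared by the root mean square difference of log2 CPM, each gene centred on its mean, where 0 is an equal profile. *Tcrg-C4* was closest to *Trgj4* (0.266) and to *Tcrg-V1* (0.339), its own cluster. *Tcrg-C1* was closest to *Tcrg-C3* (0.0899) and *Tcrg-C2* (0.114), and *Trgv2* to *Trgj2* (0.148). Grouping by cluster was only partial. *Tcrg-C1* was further from its own *Trgj1* (0.152) than from these constant regions of other clusters, with which it shares sequence. *Trgv2* was next closest to *Tcrg-C2* (0.174) of its own cluster. *Trgj4* was nearer to *Trgv2* (0.388) than to *Tcrg-V1* (0.436) of its own cluster. The distance was 0.644 from *Tcrg-C1* to *Tcrg-C4* and 0.842 from *Tcrg-C1* to *Tcrg-V1*. Among all other named genes that were tested, the nearest to *Tcrg-V1* were *Chd7* (0.139), a chromatin remodeller, *Sdc4* (0.219), a syndecan, *Kctd15* (0.235), *Trav15-2-dv6-2* (0.254), a V segment that α and δ chains can use, and *Fam102a* (0.279). The nearest to *Tcrg-C4* were *Ptgfrn* (0.137), *Tesc* (0.149), the early response factor *Egr1* (0.165), *Tead2* (0.186) and *Il20ra* (0.208). The nearest to *Tcrg-C1* were *Ten1* (0.0319), *Srek1ip1* (0.0361), *Ddx31* (0.0383), *Gtf2e1* (0.0428) and *Trbc2* (0.0449), one of the TCR β constant regions. These are distances over 6 libraries of 2 groups and were not tested.

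A γ chain reaches the cell surface with a δ chain and the CD3 chains. Of 11 genes of the δ chain listed, 10 were in the tables and 4 were tested, all with a negative log2 fold change and a median of -0.72, and none was called by edgeR or DESeq2. The δ constant region *Trdc* was at 58.1 ± 15.1 CPM in BirA and 40.6 ± 8.41 CPM in Nc1Bio (SD, n = 3), a log2 difference of -0.52 (edgeR adjusted p = 0.417). *Trdv5* had a log2 difference of -0.81 (edgeR adjusted p = 0.325) and *Trdv1* one of -0.89 (edgeR adjusted p = 0.448). Of the 4 CD3 chains, 2 had a negative and 2 a positive log2 fold change, with a median of -0.01. *Cd247*, the ζ signalling chain, was at 311 ± 10.6 CPM in BirA and 236 ± 16.8 CPM in Nc1Bio (SD, n = 3), and its log2 fold change of -0.40 was called by DESeq2 (adjusted p = 0.00545), which called 2.23% of all tested genes lower, and not by edgeR (adjusted p = 0.194).

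The 12 genes of V(D)J joining, all tested, had 4 negative and 8 positive log2 fold changes with a median of 0.19, and none was called by either tool. *Dntt*, the terminal transferase that adds bases at the joints, was at 2044 ± 145 CPM in BirA and 2576 ± 325 CPM in Nc1Bio, and its groups did not overlap. *Xrcc5* and *Prkdc*, which act in the joining of DNA ends, were also higher in every Nc1Bio library than in any BirA library, so that 3 of the 12 had this pattern, against 8.45% of all tested genes. *Rag1*, which had 3.73 ± 1.17 CPM of unique reads in BirA (SD, n = 3), had a log2 difference of 0.50 (edgeR adjusted p = 0.743). Of 18 regulators of the locus, among them the IL-7 receptor pathway, whose STAT5 is known to open the γ locus, and E and HMG factors, 7 were negative and 11 positive, with a median of 0.05. None was called by edgeR, and DESeq2, which called 0.45% of all tested genes higher and 2.23% lower, called *Lef1* higher (adjusted p = 0.0280) and *Id3*, an inhibitor of E proteins, lower (adjusted p = 0.0485). *Id2* (log2 fold change -1.60) and *Jak1* (-0.38) were lower in every Nc1Bio library than in any BirA library and were called by neither tool. Of the 18, 4 had this pattern and 3 the reverse, against 9.98% and 8.45% of all tested genes. In the IL-7 receptor pathway, *Stat5a* and *Stat5b* had log2 fold changes of 0.18 and 0.04. *Il7r* had one of -0.37, *Il2rg* one of -0.34 and *Jak3* one of -0.24.

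The list of factors of γδ subsets had the most negative median of the pathway lists. Of the marker lists, those of NK and innate lymphoid cells (-2.70) and of B cells (-1.65) had more negative ones. All 11 factors of γδ subsets had a negative log2 fold change, against 50.4% of all tested genes, with a median of -1.48. edgeR called 0 of them, 9 had an unadjusted p under 0.05 with a negative fold change, against 7.66% of all tested genes, and DESeq2 called 4 lower, against 2.23%. *Blk*, a kinase of IL-17 producing γδ cells but not of these alone, had a mean of 114 CPM in BirA and 49.4 CPM in Nc1Bio. Its log2 difference of -1.20 (SE 0.19) had an adjusted p of 0.106 in edgeR and 3.51e-07 in DESeq2. *Maf*, a transcription factor of the same subset, had a log2 difference of -1.99 (edgeR adjusted p = 0.127, DESeq2 adjusted p = 0.00333). *Egr3*, an early response factor downstream of the TCR, had one of -2.39 (edgeR adjusted p = 0.208, DESeq2 adjusted p = 0.00485). *Zbtb16*, which encodes PLZF of the NKT γδ cells, was at 8.32 ± 5.77 CPM in BirA and 2.29 ± 1.43 CPM in Nc1Bio and was called by neither tool (edgeR adjusted p = 0.361, DESeq2 adjusted p = 0.0836).

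Markers of other cell types also differed between the libraries. The 5 γδ markers (*Trdc*, *Blk*, *Sox13*, *Zbtb16* and *Maf*) summed to 347 to 650 CPM in BirA and 140 to 296 CPM in Nc1Bio. The 8 markers of NK and innate lymphoid cells summed to 737 to 927 CPM in BirA and 346 to 497 CPM in Nc1Bio, most of it *Gzma*, and 2 of the 8 were at 0 in Nc1Bio replicate 3. Of these markers 6 were tested, all with a negative log2 fold change. edgeR called none of them, and DESeq2 called 2 lower, against 2.23% of all tested genes. The αβ T cell markers summed to 829 to 1038 CPM and 795 to 887 CPM, most of it *Trbc1* and *Trbc2*. *Trac*, the α constant region, was at 36.7 ± 18.5 CPM in BirA and 13.2 ± 4.62 CPM in Nc1Bio without overlap, a log2 difference of -1.48 (edgeR adjusted p = 0.261, DESeq2 adjusted p = 0.00374). Of the co-receptors used for the depletion, *Cd4* was at 4.78 ± 2.14 CPM and 3.49 ± 2.37 CPM and *Cd8a* at 11.1 ± 5.06 CPM and 7.51 ± 4.10 CPM (SD, n = 3). The precursor markers summed to 4176 to 4832 CPM in BirA and 4856 to 6056 CPM in Nc1Bio, with *Dntt* and *Thy1* the most abundant. Of these 7 markers, 6 had a positive and 1 a negative log2 fold change. DESeq2 called 1 of them higher and 1 lower, against 0.45% and 2.23% of all tested genes. Erythroid (17644 to 97497 CPM) and granulocyte markers (356 to 8702 CPM) varied from library to library in both groups, macrophage markers summed to 135 to 1100 CPM, dendritic cell markers to 20.1 to 74.4 CPM, and epithelial markers to 22.2 to 44.9 CPM with 2 or 3 of 5 at 0 in 5 libraries. The part of any of these cells in the γ locus results was not tested.

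Leaving out each library in turn separated the members by how far they rest on 1 library. *Tcrg-V1* stayed between -1.70 and -1.17 in edgeR, and *Tcrg-C4* between -1.16 and -0.49. *Trgj4* ranged from -1.10 to -0.49 and *Tcrg-V3* from -1.65 to -0.44. *Trgv2* (-0.42 to -0.08), *Trgj2* (-0.39 to -0.11) and *Trgj1* (-0.38 to -0.02) kept a negative sign, and *Tcrg-C1*, *Tcrg-C2* and *Tcrg-C3* changed sign at least once.

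**Figure D5:**
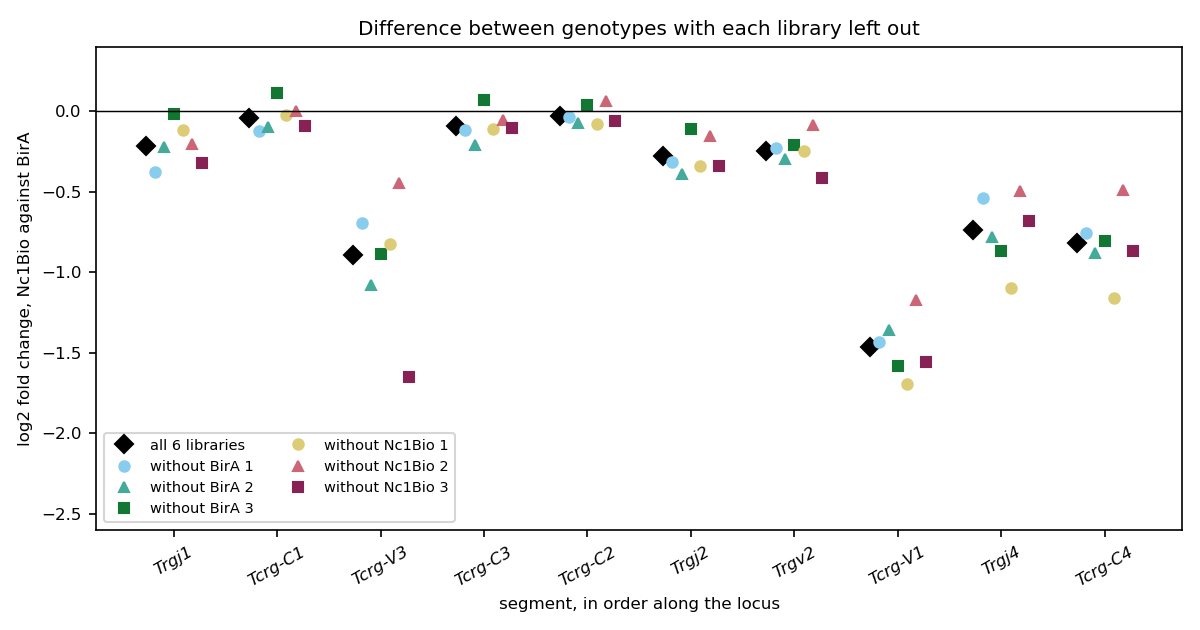
Log2 fold change of Nc1Bio against BirA in edgeR for the 10 members in order along the locus, with all 6 libraries (black diamonds) and with each library left out (coloured symbols). *Tcrg-V1* stays under -1.1 in all 7 fits, while *Tcrg-V3*, *Trgj4* and *Tcrg-C4* shift most when 1 Nc1Bio library is removed.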

How the data were processed

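Poly(A) RNA of DN thymocytes was sequenced in 3 BirA and 3 Nc1Bio libraries. The authors trimmed 59-base reads by adaptor and first 10 bases with cutadapt, aligned them with STAR to GRCm38 and counted them; the deposited count tables list unique and total gene, exon, exon-exon and intron reads per gene, in a layout other than that of the featureCounts program the study names, and strand use is not stated. The RPKM and TPM columns were left aside.

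Unique gene reads were tested in edgeR 4.0.16 (filterByExpr, TMM, quasi-likelihood, Benjamini-Hochberg at 0.05) in R 4.3.3, genotype being the one term. SE is the log2 fold change over the square root of F. On simulated data of this comparison (11976 genes), edgeR recovered 57% of 2-fold and 93% of 4-fold changes with 13 false calls, DESeq2 1.42.0 70% and 97% with 44. Shares were tested by exact two-sided permutation (scipy 1.17.1). No 2 libraries were duplicates (chi-square per degree of freedom 24.3 or more). Coding sequences came from GENCODE vM1 (NCBIM37) by gene ID for 7 of 10 members; windows are exact matches. The members, lists, tests and the rule for named genes (all members and locus rows, *Nfatc1*, up to 4 genes a list, 5 nearest profiles) were chosen with earlier results of these data known. *Rag1*, *Stat5a*, *Stat5b*, *Il7r*, *Il2rg*, *Jak3* and *Zbtb16* were named outside the rule, after their values were seen. Alternatives were RLE scaling, other filters, DESeq2, total gene reads, the replicate number as block and leaving out each library; chosen after seeing the data were DESeq2 on total reads, DESeq2 without each library, and shares without *Tcrg-C3*. *Xrcc5*, *Prkdc*, *Trac*, *Ms4a1* and *Cd79b* were singled out in the same way, and 1 marker gene is not reported here.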

Additional observations from a re-analysis of the deposited data

How the results depend on the processing

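Across all genes, edgeR called 1 gene, *Nfatc1*, against 156 without the low-count filter, 328 in DESeq2, 168 at the study's threshold (DESeq2, adjusted p under 0.01 and absolute log2 fold change over 0.5), 348 in DESeq2 on total gene reads and 0 to 2 with a library left out. The unadjusted edgeR p was under 0.05 for 527 higher and 936 lower genes. DESeq2 with 1 library left out called 203, 198 and 731 genes without BirA replicates 1, 2 and 3 and 270, 163 and 342 without Nc1Bio replicates 1, 2 and 3; the cause was not tested.

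Members called numbered 0 in edgeR, 1 without the filter, in DESeq2 and at the study's threshold, and 2 in DESeq2 on total gene reads. In DESeq2 without 1 library they numbered 1 without BirA replicate 1 or 3 or Nc1Bio replicate 2 or 3, 2 without Nc1Bio replicate 1 and 0 without BirA replicate 2, where *Tcrg-V1* had an adjusted p of 0.0519. Leaving a library out of edgeR gave 0 members each time. DESeq2 turned the sign of *Tcrg-C1* without BirA replicate 3 (0.11) and Nc1Bio replicate 2 (0.0076), of *Tcrg-C2* without the same libraries (0.029 and 0.069) and of *Tcrg-C3* without BirA replicate 3 (0.062). edgeR without a library gave -0.12 to 0.12 for *Tcrg-C1*, -0.079 to 0.064 for *Tcrg-C2* and -0.21 to 0.071 for *Tcrg-C3*. The other 7 members kept a negative sign under all 19 alternatives run. The adjusted p of *Tcrg-V1* ranged from 0.000741 to 0.403 over these, and that of *Nfatc1* from 2.91e-66 to 0.141, its edgeR call being lost without BirA replicate 2 or any 1 of the Nc1Bio libraries.

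The shares kept their signs under every alternative run. That of *Tcrg-C4* changed by -9.40 to -5.04 points in Nc1Bio, and with any library left out the smallest p is 0.2.

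Correlations of the deviations from group means were 0.339, 0.117 and -0.136 for same-numbered libraries and -0.415 to 0.283 for the others. With 3 libraries a group, these values cannot decide whether the replicate numbers pair the libraries. The replicate block gave 2 calls over all genes and 0 members, with *Tcrg-V1* at -1.52 and *Tcrg-C4* at -0.94 (edgeR adjusted p = 0.193 and 0.25). Counts of 9 to 83 unique reads limit *Tcrg-V3*. Shared sequence limits *Tcrg-V1*, *Trgv2*, *Tcrg-V3*, *Tcrg-C1*, *Tcrg-C2* and *Tcrg-C3*. In *Tcrg-V1*, 27.4% of the 49-base windows also occurred in another V segment.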
